A study of Mus musculus with 11 samples.

Results

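The 7 genes described here make, package or clear the transmitters GABA and glutamate: Slc17a6, Slc17a7, Slc17a8, Gad1, Gad2, Slc32a1 and Slc6a11. They were chosen by name from a count table of 54532 genes, 19619 of which had enough counts to be tested, and all 7 members were among those tested. The study asked how rheumatoid arthritis and depression come together, and its RNA-seq measured dissected lateral habenula (LHb) tissue in 11 libraries. The arthritis groups were 3 female and 3 male libraries of collagen antibody-induced arthritis (CAIA), and the vehicle groups were 3 female and 2 male Ctrl libraries. CAIA mice received a cocktail of 5 antibody clones against type II collagen at 50 mg/kg and LPS, a bacterial endotoxin, at 1 mg/kg 3 days later, whereas Ctrl mice received vehicle only. Arthritis and LPS exposure therefore cannot be told apart. All mice were 3 months old and of the BALB/c strain, with no transgene named. Brains of all groups were sliced in cold buffer that held kynurenic acid, a blocker of ionotropic glutamate receptors. The labels do not say whether libraries came from separate animals, and p-values here reflect only how much these 11 samples varied.

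Glutamate is loaded into synaptic vesicles by the vesicular glutamate transporters, and the one a neuron uses marks it as glutamatergic. GABA is made from glutamate by the glutamate decarboxylases, loaded into vesicles by the vesicular GABA transporter, and taken back from the extracellular space by plasma membrane transporters. Most LHb neurons are glutamatergic, and the nucleus receives much of its GABA from axons of neurons elsewhere, whose transcripts lie mostly in their distant cell bodies. The tissue held transcripts of all 10 LHb markers, with a summed level of 1639 to 1884 counts scaled to a common library size (CPM) in the 6 CAIA libraries and 1640 to 1708 CPM in the 5 Ctrl libraries. All 12 medial habenula markers were detected too, with sums of 2291 to 2867 CPM in CAIA and 2134 to 2806 CPM in Ctrl. The 12 thalamus markers, all detected, summed to 2462 to 3069 CPM in CAIA and 1889 to 3266 CPM in Ctrl. Both sums stood above that of the LHb markers in every library, so the libraries were not of LHb cells alone. Sums over different genes do not give the share of each tissue. In such bulk tissue, fewer cells of a type and less RNA per cell cannot be told apart.

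Gad1 and Gad2 encode the decarboxylases GAD67 and GAD65, and Slc32a1 encodes the vesicular GABA transporter. All lie on the forward strand of chromosome 2 of GRCm38, Gad1 at chr2:70553072-70602014, Gad2 at chr2:22622205-22693874 and Slc32a1 at chr2:158610767-158615748. Their levels varied together over the 11 libraries more closely than those of the other members, and the sequence before their RefSeq start sites (build GRCm38.p6) is shown for that reason. Each stretch runs 5′ to 3′ on the forward strand, overlaps no exon of its gene in GENCODE M21, and carries matches to the searched motifs in capitals. The stretches of Gad2 and Slc32a1 end before the annotated gene, while that of Gad1 lies inside it, past the outermost exon and directly before the next. The stretches lie at chr2:70561879-70562041 for Gad1, chr2:22622077-22622204 for Gad2 and chr2:158610508-158610757 for Slc32a1.
Gad1: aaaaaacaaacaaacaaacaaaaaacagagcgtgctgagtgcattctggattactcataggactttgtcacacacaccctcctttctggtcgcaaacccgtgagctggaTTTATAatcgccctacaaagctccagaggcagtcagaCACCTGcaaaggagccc
Gad2: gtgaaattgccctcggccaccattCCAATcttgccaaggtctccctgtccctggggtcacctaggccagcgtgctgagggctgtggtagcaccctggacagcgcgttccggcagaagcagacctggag
Slc32a1: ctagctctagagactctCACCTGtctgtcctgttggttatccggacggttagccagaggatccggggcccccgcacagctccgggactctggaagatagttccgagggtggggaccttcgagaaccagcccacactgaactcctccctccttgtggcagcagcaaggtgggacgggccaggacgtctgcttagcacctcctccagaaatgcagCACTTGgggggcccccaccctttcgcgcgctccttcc

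Both strands were searched for 5 motifs: the E-box (CANNTG), the GC box (GGGCGG), the CCAAT box (CCAAT), the TATA box (TATAAA) and a homeodomain core (TAATTA). The 163 bases shown for Gad1 held 1 E-box, which 52.1% of 32851 RefSeq promoters also held over the same length, and 1 reverse-strand TATA box, found in 7.78% of them. The 128 bases for Gad2 held 1 CCAAT box, found in 17.2% of promoters over that length, and the 250 bases for Slc32a1 held 2 E-boxes, found at least once in 66.2%. No motif was found in all 3 stretches, no matches overlapped, and such matches are descriptions of sequence only. The Slc32a1 locus also shares 697 exon bases with Gm14205, annotated on the opposite strand. The strand setting of the counting was not given, but Gm14205 had 0 counts over all libraries.

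The first question was how glutamatergic and GABAergic transcripts stood to each other in Ctrl tissue. Levels were compared between genes as CPM per kb of exon, since longer transcripts give more reads. In the 5 Ctrl libraries Slc6a11, which encodes the GABA transporter GAT3 of astrocytes, had the highest level, at 155 ± 15.1 CPM per kb (SD, n = 5). Slc17a6, which encodes the transporter VGLUT2 of most subcortical glutamatergic neurons, followed at 107 ± 13.5 CPM per kb. Slc17a7, which encodes VGLUT1, the main form in cortex and hippocampus, had 93.0 ± 15.3 CPM per kb. The 3 GABAergic members formed a much lower tier, with 5.94 ± 2.96 CPM per kb for Gad2, 5.04 ± 5.45 for Gad1 and 3.30 ± 3.86 for Slc32a1. Slc17a8, which encodes VGLUT3, the form found in scattered neurons that often release another transmitter too, was lowest at 0.411 ± 0.137 CPM per kb.

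Neighbours in this order whose Ctrl ranges overlapped were Slc17a6 and Slc17a7, Gad2 and Gad1, and Gad1 and Slc32a1. By exon length, the other steps were clear of the spread. The mean of Slc6a11 was 1.45 times that of Slc17a6, and the mean of Slc17a7 was 15.7 times that of Gad2. The mean of Slc32a1 was 8.03 times that of Slc17a8. With the longest annotated transcript as the length, chosen as an alternative after the data were seen, Slc17a7 stood above Slc17a6 (163 against 140 CPM per kb) and Gad1 above Gad2 (10.7 against 6.07 CPM per kb). The order within each of these pairs thus depended on the length used. Slc6a11 stayed highest, at 190 CPM per kb, but was then next to Slc17a7, so the step of 1.45 times belongs to exon length only. The Ctrl means of Gad1 and Slc32a1 rested largely on female Ctrl 1. Without that library they were 2.85 and 1.64 CPM per kb.

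**Figure D1:**
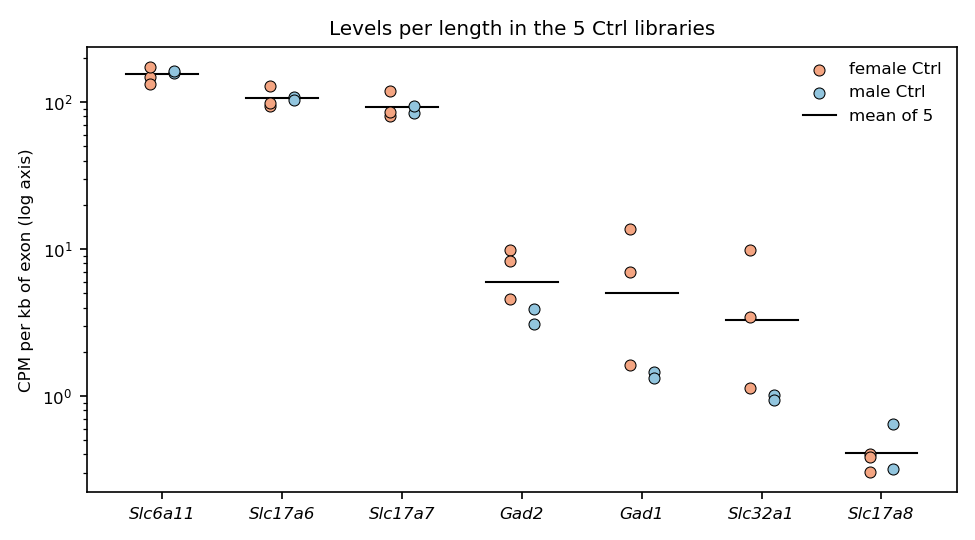
Level per length of the 7 genes in the 5 Ctrl libraries, in CPM per kb of exon on a log axis; each point is 1 library, 3 female and 2 male, and the bar is the mean of 5. Slc6a11, Slc17a6 and Slc17a7 lie near 100 CPM per kb, the GABAergic genes mostly between 1 and 10, and Slc17a8 below 1.

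Summed over the 3 vesicular glutamate transporters, the level was 185 to 214 CPM per kb in the 5 Ctrl libraries, a narrow range. Summed over Gad1, Gad2 and Slc32a1 it was 33.6, 7.35 and 18.7 CPM per kb in female Ctrl 1, 2 and 3, and 5.55 and 6.16 CPM per kb in male Ctrl 1 and 3. The GABAergic side thus set most of the difference in balance between Ctrl libraries. Glutamatergic transcripts were 6.36, 28.7 and 9.91 times as abundant as GABAergic ones in female Ctrl 1, 2 and 3, and 34.9 and 32.4 times in male Ctrl 1 and 3. Glutamatergic transcripts were in excess in each of the 5 libraries, but the size of the excess differed between them by more than 5 times.

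Within the vesicular glutamate transporters, Slc17a6 made up 55.7% ± 4.09 of the summed level in CAIA (SD, n = 6) and 53.5% ± 6.26 in Ctrl (SD, n = 5), a difference smaller than either SD. Slc17a7 made up 44.1% ± 4.09 in CAIA and 46.3% ± 6.25 in Ctrl. The share of Slc17a8 was 0.188% ± 0.0404 in CAIA and 0.204% ± 0.0672 in Ctrl. By exon length, Slc17a7 exceeded Slc17a6 in 2 libraries, male CAIA 2 with a Slc17a6 share of 48.6%, and female Ctrl 1 with 44.2%. All these shares rest on exon length. With the longest transcript as the length, the Ctrl mean was higher for Slc17a7 than for Slc17a6 (163 against 140 CPM per kb). Which of the 2 genes had the larger share thus depended on the length used.

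The balance in CAIA tissue overlapped that in Ctrl tissue, with male CAIA 3 alone outside the Ctrl range. The glutamatergic sum was 190 to 225 CPM per kb in the 6 CAIA libraries, against 185 to 214 CPM per kb in the 5 Ctrl libraries. The log2 ratio of the GABAergic to the glutamatergic sum averaged -3.90 ± 0.89 in CAIA (SD, n = 6) and -4.19 ± 1.13 in Ctrl (SD, n = 5), a difference smaller than either SD. By library it was -4.29, -3.47 and -5.03 in female CAIA 1, 2 and 3, against -2.67, -4.84 and -3.31 in female Ctrl 1, 2 and 3. In males it was -4.20, -4.01 and -2.40 in CAIA 1, 2 and 3, against -5.13 and -5.02 in Ctrl 1 and 3. In females the groups overlapped, while all 3 male CAIA libraries lay above both male Ctrl libraries. No test is given for this ratio, since its genes were chosen with results of these data known.

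**Figure D2:**
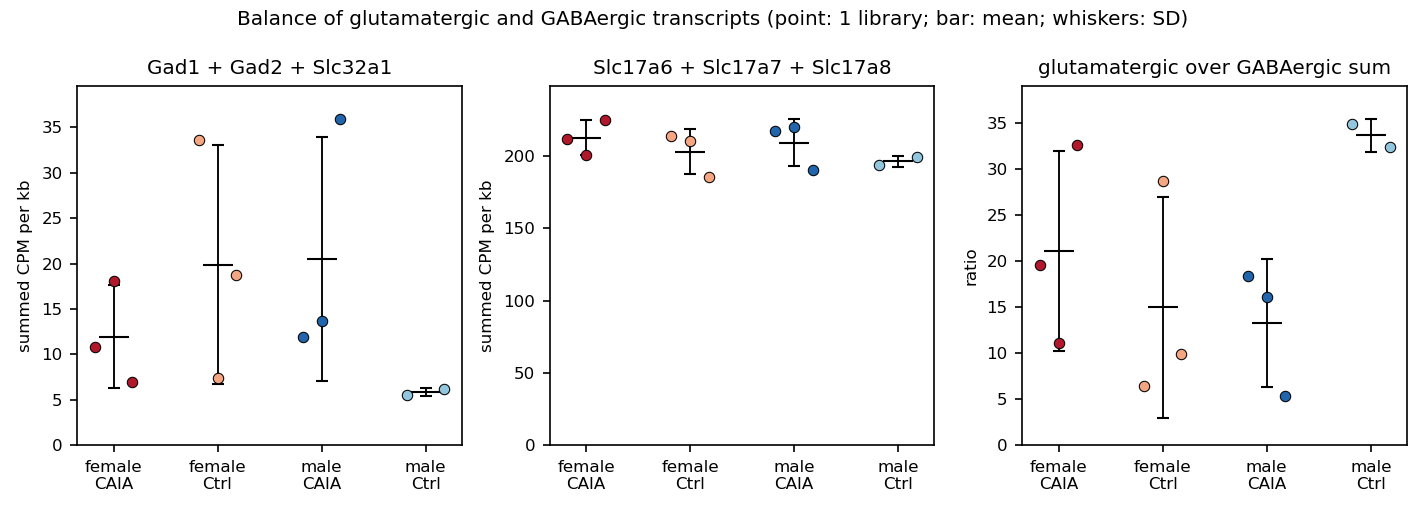
Summed level of Gad1, Gad2 and Slc32a1 (left), summed level of Slc17a6, Slc17a7 and Slc17a8 (middle), both in CPM per kb of exon, and the ratio of glutamatergic to GABAergic sum (right); each point is 1 library, the bar is the group mean and the whiskers are the SD. The glutamatergic sum stays between 185 and 225 CPM per kb in all 11 libraries, while the GABAergic sum runs between 5.55 and 36.0 CPM per kb.

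The second question was whether CAIA tissue differed from Ctrl tissue in any member. With both sexes weighted equally, 0 of 7 members passed in edgeR's quasi-likelihood test at an adjusted p of 0.05, where 0.596% of the 19619 genes passed (117 genes, none of them members). No member had an unadjusted p below 0.05 in that comparison either. For 0 of 7 members did the 6 CAIA libraries lie clear of the 5 Ctrl libraries, as they did for 1.18% of all genes tested. Log2 fold changes of the 7 members lay between -0.08 and 0.65, beside a median of 0.00 over all genes tested.

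Among the vesicular glutamate transporters, Slc17a6 (chr7:51622006-51671119, forward strand) had 650, 649 and 690 CPM in female CAIA 1, 2 and 3, against 510, 699 and 536 CPM in female Ctrl 1, 2 and 3. In males it had 631, 578 and 605 CPM in CAIA 1, 2 and 3, against 586 and 562 CPM in Ctrl 1 and 3. Levels were even, and CAIA and Ctrl ranges overlapped in both sexes. The log2 fold change was 0.13 ± 0.08 over both sexes (SE; edgeR quasi-likelihood adjusted p = 0.881), with a 95% interval of -0.04 to 0.31.

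Slc17a7 (chr7:45163949-45176142, forward strand) had 490, 434 and 523 CPM in female CAIA 1, 2 and 3, against 641, 436 and 462 CPM in female Ctrl 1, 2 and 3. In males it had 541, 609 and 422 CPM in CAIA 1, 2 and 3, against 458 and 510 CPM in Ctrl 1 and 3. The highest library was female Ctrl 1 and the lowest male CAIA 3, and the groups overlapped in both sexes. The log2 fold change was 0.01 ± 0.12 over both sexes (SE; edgeR adjusted p = 0.995), with a 95% interval of -0.24 to 0.26. Its sign turned when any of 6 libraries was left out, reaching -0.06 without male CAIA 2. The 6 were female CAIA 3, female Ctrl 2, female Ctrl 3, male CAIA 1, male CAIA 2 and male Ctrl 1.

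Slc17a8 (chr10:89574020-89621253, reverse strand) was close to the limit of measurement, with 35 to 78 counts per CAIA library and 40 to 84 per Ctrl library. Its level was 1.26 to 2.68 CPM in the 6 CAIA libraries, with a median of 1.83 CPM, and 1.43 to 3.04 CPM in the 5 Ctrl libraries, with a median of 1.81 CPM. The highest value was in male Ctrl 3, without which the log2 fold change over both sexes was 0.23 in place of -0.08 ± 0.22 (SE; edgeR adjusted p = 0.981). Its sign also turned without male CAIA 3, to 0.00.

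Gad1 had 24.6, 35.1 and 12.5 CPM in female CAIA 1, 2 and 3, against 105, 12.4 and 53.5 CPM in female Ctrl 1, 2 and 3. In males it had 29.4, 37.3 and 74.5 CPM in CAIA 1, 2 and 3, against 11.2 and 10.1 CPM in Ctrl 1 and 3. Replicates differed by up to 8.51 times within a group, in female Ctrl, and the female groups overlapped while the male groups did not. The log2 fold change was 0.45 ± 0.58 over both sexes (SE; edgeR adjusted p = 0.956), with a 95% interval of -0.91 to 1.81. It was -1.25 ± 0.76 in females (edgeR adjusted p = 1.00) and 2.15 ± 0.93 in males (edgeR adjusted p = 0.894).

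Gad2 had 34.3, 53.8 and 26.0 CPM in female CAIA 1, 2 and 3, against 58.1, 27.0 and 48.4 CPM in female Ctrl 1, 2 and 3. In males it had 33.9, 37.6 and 94.4 CPM in CAIA 1, 2 and 3, against 18.1 and 22.9 CPM in Ctrl 1 and 3. Male CAIA 3 was the highest of the 11 libraries, and again only the male groups were clear of each other. The log2 fold change was 0.60 ± 0.37 over both sexes (SE; edgeR adjusted p = 0.882), with a 95% interval of -0.27 to 1.47. It was -0.23 ± 0.49 in females (edgeR adjusted p = 1.00) and 1.44 ± 0.58 in males (edgeR adjusted p = 0.878, unadjusted p = 0.0395).

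Slc32a1 had 4.98, 12.3 and 2.37 CPM in female CAIA 1, 2 and 3, against 27.8, 3.18 and 9.67 CPM in female Ctrl 1, 2 and 3. In males it had 6.24, 6.71 and 28.4 CPM in CAIA 1, 2 and 3, against 2.82 and 2.64 CPM in Ctrl 1 and 3. Male CAIA 3 and female Ctrl 1 stood far above the other 9 libraries, in opposite treatment groups. The log2 fold change was 0.65 ± 0.77 over both sexes (SE; edgeR adjusted p = 0.953), with a 95% interval of -1.17 to 2.46. It was -1.05 ± 0.98 in females (edgeR adjusted p = 1.00) and 2.34 ± 1.23 in males (edgeR adjusted p = 0.914).

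The calls on these 3 genes depended on the filter for low counts. When every gene with at least 1 count was kept, 35266 genes were tested, and Gad1, Gad2 and Slc32a1 passed over both sexes at edgeR adjusted p of 4.65e-05, 3.55e-10 and 4.11e-05. Their log2 fold changes stayed at 0.45, 0.61 and 0.65, but the SE of Gad1 was 0.09 in place of 0.58. In that fit each of the 7 members had the same 246862 degrees of freedom, against 7.27 for Gad1 in the filtered fit, so a gene's own spread between replicates carried almost no weight. No member passed under the other filter, DESeq2, limma-voom, other size factors or with any library left out.

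**Figure D3:**
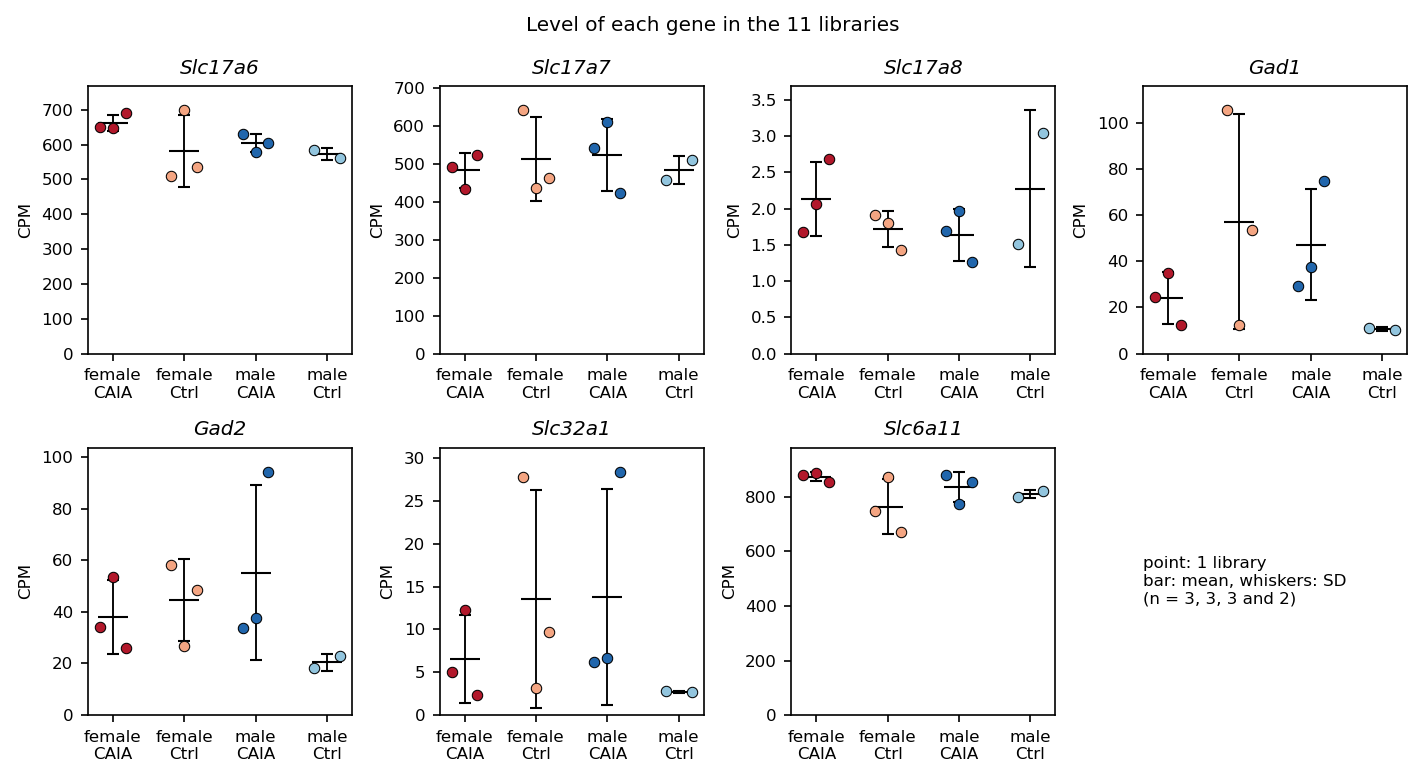
Level of each gene in CPM in the 11 libraries, by sex and treatment; each point is 1 library, the bar is the group mean and the whiskers are the SD (n = 3, 3, 3 and 2). Gad1, Gad2 and Slc32a1 spread widely within every group but male Ctrl, while Slc17a6 and Slc6a11 are even.

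Slc6a11 (chr6:114131241-114249952, forward strand) had 882, 886 and 856 CPM in female CAIA 1, 2 and 3, against 748, 873 and 673 CPM in female Ctrl 1, 2 and 3. In males it had 882, 775 and 854 CPM in CAIA 1, 2 and 3, against 800 and 821 CPM in Ctrl 1 and 3. The lowest library was female Ctrl 3, and CAIA and Ctrl overlapped in both sexes. The log2 fold change was 0.12 ± 0.08 over both sexes (SE; edgeR adjusted p = 0.881), with a 95% interval of -0.04 to 0.28.

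The sexes were then taken apart. In females 0 of 7 members passed, where 0.26% of genes did (51 genes), and for 0 of 7 were the CAIA and Ctrl libraries clear of each other, where 11.5% of genes were. In males 0 of 7 members passed, where 0% of genes did by edgeR. There 1104 genes, 5.63% of the 19619 tested, had an unadjusted edgeR p below 0.05, and DESeq2 called 71 genes (0.429%). Gad1, Gad2 and Slc32a1 were higher in each of the 3 male CAIA libraries than in both male Ctrl libraries, 3 of 7 members, where 9.18% of all genes tested were. With 3 libraries against 2, this ordering is frequent among all genes, and the 3 genes varied together, so they do not count as 3 separate observations.

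The difference between the sexes was tested as the female minus the male log2 fold change. It was -3.39 ± 1.20 for Gad1 (SE; edgeR adjusted p = 0.978, unadjusted p = 0.0243), -1.66 ± 0.75 for Gad2 and -3.39 ± 1.57 for Slc32a1 (edgeR adjusted p = 0.978 each). No member passed, and 0% of genes did by edgeR. An unadjusted edgeR p below 0.05 was found for 807 genes, 4.11% of the 19619 tested, and DESeq2 called 2 (0.0102%). The other 4 members differed between the sexes by -0.20 to 0.80 on the log2 scale, with no call. Female Ctrl 1 bore much of the female values: without it the female log2 fold change was 0.02 for Gad2 and 0.03 for Slc32a1. For Gad1 it was then -0.45. Male CAIA 3 bore part of the male values: without it the male log2 fold change was 0.80 for Gad2, 1.24 for Slc32a1 and 1.65 for Gad1. Over both sexes, with each library left out in turn, Gad1 ran between 0.20 and 0.85, Gad2 between 0.29 and 0.73, and Slc32a1 between 0.10 and 1.18. The lowest of these values came without male CAIA 3.

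**Figure D4:**
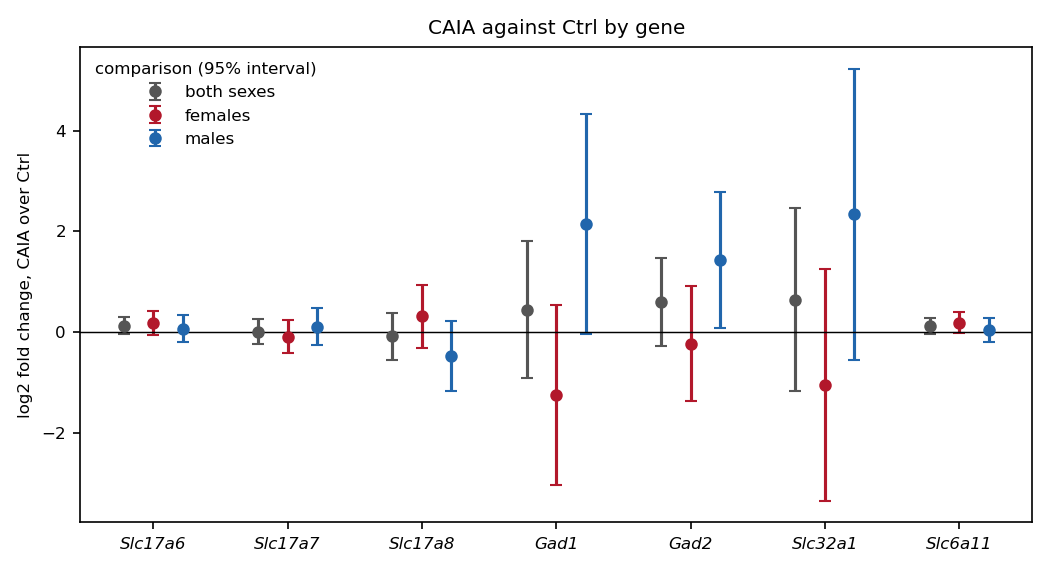
Log2 fold change of CAIA over Ctrl for each gene, for both sexes together, for females and for males; points are edgeR estimates and bars are 95% intervals. Intervals of Slc17a6, Slc17a7 and Slc6a11 are narrow around 0, while those of Gad1, Gad2 and Slc32a1 are wide and their female and male estimates lie on opposite sides of 0.

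Female and male Ctrl libraries were also compared. Gad1, Gad2 and Slc32a1 were higher in each of the 3 female Ctrl libraries than in both male Ctrl libraries, where 9.18% of genes were. The log2 difference, female minus male Ctrl, was 2.42 ± 0.94 for Gad1 (SE; edgeR adjusted p = 0.740, unadjusted p = 0.0351). It was 1.12 ± 0.57 for Gad2 (edgeR adjusted p = 0.750) and 2.31 ± 1.23 for Slc32a1 (edgeR adjusted p = 0.762). None of the 7 members passed, where 0.0357% of genes did. This comparison shares its male Ctrl libraries with the male CAIA comparison.

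What set Gad1, Gad2 and Slc32a1 apart was their spread between replicates. The SD of log2 CPM within groups was 1.23 for Slc32a1, 1.00 for Gad1 and 0.61 for Gad2, beside a median of 0.16 over 15556 genes that averaged 1 CPM or more. Only 0.199% of those genes had a larger SD than Slc32a1, 0.411% a larger one than Gad1, and 1.62% a larger one than Gad2. The SD was 0.14 for Slc17a6 and 0.12 for Slc6a11, exceeded by 58.5% and 71.2% of genes. For Slc17a7 and Slc17a8 it was 0.23 and 0.37, above the median, exceeded by 26.4% and 8.31% of genes. Over the 11 libraries the highest level was 12.0 times the lowest for Slc32a1, 10.4 times for Gad1 and 5.23 times for Gad2. It was 2.42 times for Slc17a8, 1.52 times for Slc17a7, 1.37 times for Slc17a6 and 1.32 times for Slc6a11.

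The 3 genes were high and low in the same libraries. Over the 11 libraries, where the genes of a library share its tissue and depth, Pearson's r of log2 CPM was 0.96 between Gad1 and Slc32a1, 0.94 between Gad2 and Slc32a1, and 0.90 between Gad1 and Gad2. Their proportions still differed: the level of Gad1 per length was 0.61 times that of Gad2 in male CAIA 3, but 1.39 times in female Ctrl 1 and 0.34 times in male Ctrl 3. The library richest in Gad2 was male CAIA 3, and the one richest in Gad1 was female Ctrl 1.

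Markers of GABAergic neurons were then compared between the libraries. The list held 16 genes, all tested, of which 0 passed in any comparison. Its summed level was 171 to 217 CPM in the 6 CAIA libraries and 141 to 338 CPM in the 5 Ctrl libraries, and only Dlx6 was at 0 throughout a group, in male Ctrl. Male CAIA 3, with 198 CPM, lay in the middle of that range. In males 14 of the 16 markers had a positive log2 fold change, with a median of 1.35. In females 4 of the 16 did, with a median of -1.51. Over the 11 libraries, r with the sum, Cck included, was 0.19 for Gad1, -0.02 for Gad2 and 0.21 for Slc32a1. Most of that sum was Cck, a peptide gene that many glutamatergic neurons express too. Without Cck, a step taken after the values were seen, the other 15 genes summed to 50.6 CPM in male CAIA 3, 135 CPM in female Ctrl 1 and 52.6 CPM in female Ctrl 3. They summed to 25.4 to 44.4 CPM in the other 8 libraries.

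Of the 16 GABAergic markers, 3 had their highest level in male CAIA 3, 9 in female Ctrl 1, 3 in female Ctrl 3 and 1 in male Ctrl 1. The genes named next were chosen after their values were seen. Dlx1, a transcription factor of forebrain interneurons, had 0.791 CPM in male CAIA 3, against 9.76 CPM in female Ctrl 1, 4.05 CPM in female Ctrl 3 and 0.151 CPM in male Ctrl 1. Sst, an interneuron peptide gene, had 49.4 CPM in female Ctrl 1 and 7.63 to 16.5 CPM in the other 10 libraries. Tal1, a transcription factor of GABAergic neurons of the midbrain and brainstem, had 7.01 CPM in male CAIA 3 and 3.10 CPM in female CAIA 2, against 1.05 to 1.79 CPM in the other 9. Gata3, which acts with Tal1 there and is also expressed in the pineal gland, had 3.59 CPM in male CAIA 3 and 1.08 CPM in female CAIA 2, against 0 to 0.213 CPM elsewhere. Sox14, also highest in male CAIA 3, had 1.22 CPM there and 0.593 CPM in female CAIA 2, against at most 0.102 CPM elsewhere. High Gad1, Gad2 and Slc32a1 thus went with different marker genes in male CAIA 3 and in female Ctrl 1.

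Markers of neighbouring tissue differed between the same libraries. The 12 hippocampus and cortex markers, all detected, summed to 323 to 420 CPM in male CAIA, against 237 CPM in both male Ctrl libraries. In females they summed to 285 to 368 CPM in CAIA, against 291 to 409 CPM in Ctrl. Prox1 was the largest part of that sum in every library. It had 150, 137 and 116 CPM in male CAIA 1, 2 and 3, against 98.8 and 99.4 CPM in male Ctrl 1 and 3. In males 11 of the 12 had a positive log2 fold change, with a median of 1.57, and in females 4 of the 12, with a median of -0.54; none passed. Tbr1, a transcription factor of cortical glutamatergic neurons, had 5.46 CPM in male CAIA 3, against 43.4 CPM in female Ctrl 1 and 20.3 CPM in female Ctrl 3. The 7 pineal markers, 5 of them tested and 0 called, summed to 36.3 CPM in male CAIA 3 and 30.7 CPM in female CAIA 2, and to 1.30 to 9.33 CPM in the other 9 libraries, with Gngt1 at 0 in all 5 Ctrl libraries. Over the 11 libraries, r with the summed hippocampus and cortex markers was 0.76 for Gad1, 0.59 for Gad2 and 0.61 for Slc32a1. In the same gene order, it was 0.33, 0.54 and 0.48 with the summed pineal markers. With astrocyte markers it was 0.48, 0.67 and 0.51, and with LHb markers -0.57, -0.42 and -0.59. With the summed thalamus markers it was -0.70 for Gad1 and -0.62 for both Gad2 and Slc32a1. The part of these tissues in the levels of Gad1, Gad2 and Slc32a1 was not tested.

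**Figure D5:**
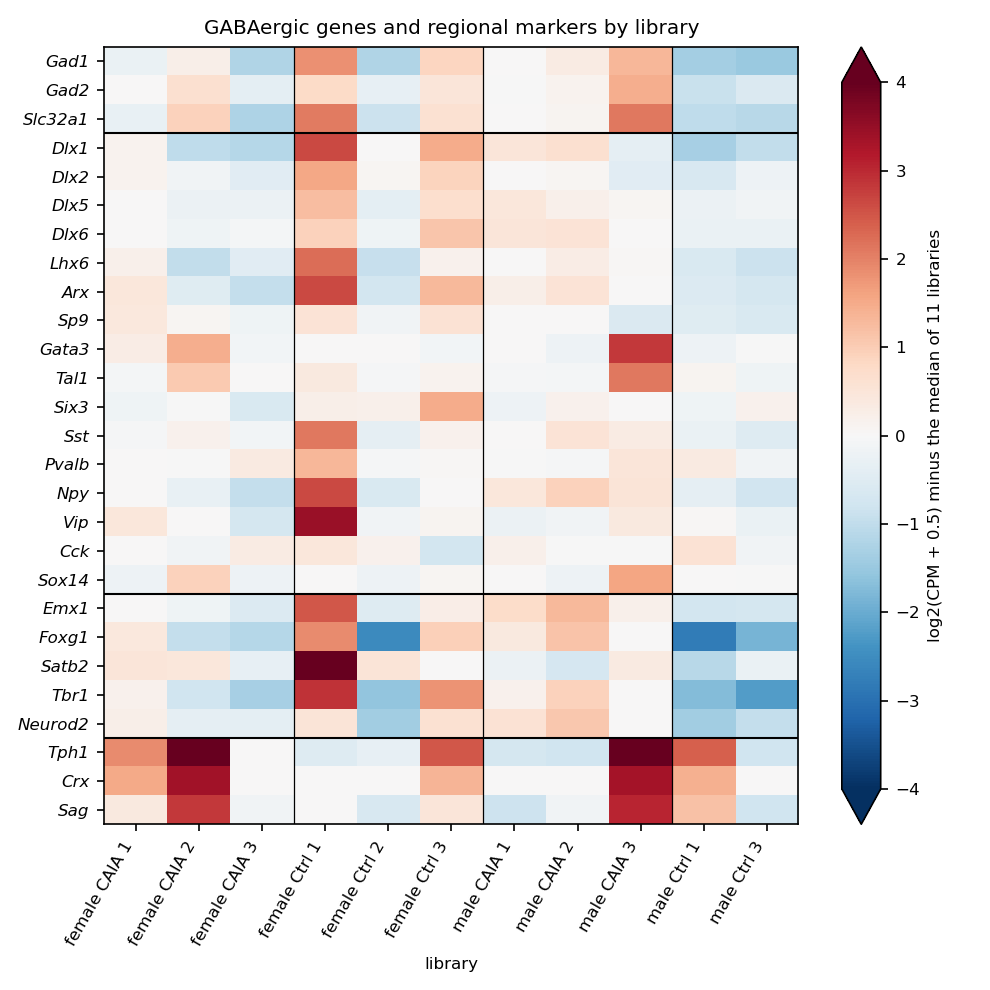
Log2(CPM + 0.5) of Gad1, Gad2 and Slc32a1 (top), GABAergic neuron markers (block below), then 5 hippocampus and cortex markers and, at the bottom, 3 pineal markers in each library, minus the gene's median over the 11 libraries, with colour capped at 4 in both directions. Male CAIA 3 is high in Gata3, Tal1 and the 3 pineal genes shown, while female Ctrl 1 is high in forebrain interneuron genes and Tbr1. The regional markers shown are part of lists of 12 and 7. Of those not shown, pineal Aanat had 1.15 CPM in male CAIA 3 and 1.47 CPM in male Ctrl 1.

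Markers of the choroid plexus, the secretory tissue of the ventricle beside the habenula, had a lower summed level in each CAIA library than in any Ctrl library. The 14 markers, all detected, summed to 248 to 266 CPM in female CAIA, against 2737 to 5672 CPM in female Ctrl, and to 289 to 2135 CPM in male CAIA, against 4282 to 4516 CPM in male Ctrl. Over both sexes all 14 log2 fold changes were negative, with a median of -3.02. Of the 14, 7 passed as lower and 0 as higher, where 0.576% of all genes tested passed as lower. The 8 markers of meningeal fibroblasts, all detected, summed to 59.5 to 67.0 CPM in female CAIA, against 89.5 to 112 CPM in female Ctrl, and to 57.5 to 88.4 CPM in male CAIA, against 73.3 to 92.6 CPM in male Ctrl. Over both sexes 7 of the 8 log2 fold changes were negative, with a median of -0.42, and 3 of the 8 passed as lower and 0 as higher. For Slc6a11, r over the 11 libraries was -0.69 with the summed choroid plexus markers, -0.78 with those of meningeal fibroblasts and 0.74 with those of thalamus. With the summed astrocyte markers it was 0.13, and with those of neurons 0.66. For Slc17a6 it was -0.61 with choroid plexus, -0.64 with meningeal fibroblasts, 0.63 with thalamus and 0.68 with LHb markers. The part of these tissues in the small positive fold changes of both genes was not tested.

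The genes most like each member over the 11 libraries were named by Pearson's r of log2 CPM among the same 15556 genes, as a description. Slc17a6 was closest to Camk2d (r = 0.94), Chml (0.90) and Slitrk6 (0.89). Slitrk6 is itself on the list of thalamus markers. Slc17a7 was closest to Bcl11a (0.92), Chrd (0.90) and Tmem121b (0.90). Gad1 was closest to Slc32a1, then Inhba (0.94) and Adcy2 (0.93). Beyond each other, Gad2 was closest to Pcid2 (0.88) and Slc32a1 to Dkk3 (0.89). Slc6a11 was closest to Vwc2l (0.96), Lrfn5 (0.93) and Bri3bp (0.91), and its r with Slc17a6 was 0.81. For Slc17a8 the nearest was Ctc1 (0.83), a gene that varied between 48.2 and 52.3 CPM only.

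Other genes of GABA and glutamate handling gave no call. Of 23 such genes, all tested, 0 passed in any of the CAIA comparisons. Over both sexes 19 of the 23 log2 fold changes were positive, with a median of 0.05. Slc6a13, which encodes the GABA transporter GAT2 of the meninges and liver, had a log2 fold change of 0.22 ± 0.14 over both sexes (SE; edgeR adjusted p = 0.881). In males Slc6a13 had 0.67 ± 0.21 (edgeR adjusted p = 0.640, unadjusted p = 0.00582). It was 1 of 5 of the 23 genes that were higher in each male CAIA library than in both male Ctrl libraries, where 9.18% of all genes tested were. Its female minus male difference was -0.90 ± 0.28 (SE; edgeR adjusted p = 0.978, unadjusted p = 0.00523). Both enzymes of GABA breakdown were nearly level, with log2 fold changes of 0.05 for Abat, the GABA transaminase, and 0.11 for Aldh5a1, the succinate semialdehyde dehydrogenase that follows it.

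Among the 6 glutamate uptake transporters, log2 fold changes over both sexes ran between -0.32 for Slc1a5, a neutral amino acid exchanger, and 0.06 for Slc1a3, the astrocyte glutamate transporter GLAST, with no call. Glul, the glutamine synthetase of astrocytes, had 1081 ± 65.6 CPM in CAIA (SD, n = 6) and 968 ± 168 CPM in Ctrl (SD, n = 5). Glud1, the mitochondrial glutamate dehydrogenase, had 374 ± 14.4 CPM in CAIA and 355 ± 11.9 CPM in Ctrl. Over both sexes, the lowest p of the 23 genes was that of Slc38a3, a glutamine transporter of astrocytes, with 88.3 ± 3.61 CPM in CAIA and 99.9 ± 7.85 CPM in Ctrl. Its log2 fold change was -0.17 ± 0.06 (SE; edgeR adjusted p = 0.558, unadjusted p = 0.0166). Slc38a2, a neuronal glutamine transporter, had 0.19 ± 0.09, with no call.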

How the data were processed

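RNA of dissected LHb tissue was measured in 11 libraries, grouped by sex and treatment from the sample titles. The deposited table holds raw counts of reads for each gene. The submitters' processing notes name featureCounts 1.5.0-p3, HISAT2 2.0.5, cutadapt 1.9.1 and the build GRCm38. How strand was handled, and which annotation release served, is not given in the sources used here. Totals were 25317306 to 29565006 counts per library, and Slc17a8 had 35 to 84 counts per library.

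Genes passing filterByExpr by group (19619) were fitted in edgeR 4.0.16 (R 4.3.3) with TMM factors of 0.979 to 1.03 and 4 group means sharing 1 spread (glmQLFit robust, glmQLFTest, 7 residual degrees of freedom). P-values were two-sided and adjusted by Benjamini-Hochberg over these genes, at 0.05. SE is the fold change over the square root of F. CPM uses TMM-scaled totals. Lengths are exon unions of GENCODE M21, which held 54495 of the gene identifiers. The fit was tested on simulated counts. Likeness used log2 CPM with a prior count of 2, and figures matplotlib 3.10.9.

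The members and lists were chosen with earlier results of these data known. Members are always described. Of each other list, genes that passed are named, otherwise the 2 with the lowest p over both sexes. Of markers, at most the 3 most abundant may be named, apart from those said to be chosen later. For likeness, the 3 highest r are named. Values of 1 listed gene are not reported here.

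No replicate pair agreed within sampling noise (chi-square per degree of freedom 6.69 to 28.8). Alternatives were other size factors and filters, DESeq2 1.42.0, limma-voom 3.58.1, a threshold of 0.1, replicate blocks, an additive model, 1 sex alone, other lengths and sums, and each library left out.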

Additional observations from a re-analysis of the deposited data

Results flagged for a closer look

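Among 36 sets of values, each a gene or the transcript balance in 1 treatment group with both sexes together, 3 had a library far from the others, where chance gives about 1 in 20. Slc6a11 in male CAIA 2 (775 CPM) lay below the other 5 CAIA libraries, with 70.5% of the group's range as the gap to the nearest. Slc32a1 in female Ctrl 1 (27.8 CPM) lay above the other 4 Ctrl libraries, with a gap of 72.0% of the range. Glul in female Ctrl 1 (1261 CPM) lay above the other 4 Ctrl libraries, with a gap of 76.5% of the range.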

How the results depend on the processing

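Of 576 member values recomputed under the alternatives, 546 kept their direction and their side of the threshold. Another 14 gained a call, all with no filter on low counts, and 16 changed sign. With no filter, 3 members were called over both sexes, 2 in females (Gad1 at -1.24 and Slc32a1 at -1.05), 3 in males, 3 in the difference between the sexes and 3 between female and male Ctrl, through the pooled spread described above. Same-numbered libraries did not deviate together (r of 0.02, -0.04 and -0.09 in females, 0.03 and -0.21 in males). The replicate block turned the sign of Slc17a7, to -0.044 over both sexes and -0.017 in males, and gave 82 called genes in females and 31 in males.

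Numbers of called genes are given for both sexes, females, males, the difference between the sexes, and female against male Ctrl, in that order. They were 117, 51, 0, 0 and 7 as reported, 470, 452, 423, 316 and 396 with no filter, and 222, 171, 71, 2 and 17 with DESeq2. A threshold of 0.1 gave 179 over both sexes and 91 in females, and fits of 1 sex alone gave 108 in females and 43 in males. With 1 library left out they were 43 to 180, 0 to 104, 0 to 142, 0 to 0 and 6 to 42. For the changes in these numbers the cause was not tested.

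With 1 library left out, log2 fold changes that turned sign ran as follows. Slc17a7 ran between -0.058 and 0.11 over both sexes, -0.19 and 0.11 in females, -0.016 and 0.25 in males, and -0.33 and 0.00034 for females minus males. Slc17a8 ran between -0.29 and 0.23 over both sexes and -0.90 and 0.13 in males. In females Gad2 ran between -0.57 and 0.020, and Slc32a1 between -1.89 and 0.026.

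The log2 balance of GABAergic to glutamatergic transcripts, as a difference of mean log2 values in place of a ratio of sums, was -2.40 in female CAIA, -1.60 in female Ctrl, -1.46 in male CAIA, -3.28 in male Ctrl, -1.93 in all CAIA and -2.28 in all Ctrl. In male Ctrl it was -4.97 from plain CPM, -4.45 as Gad1 and Gad2 over Slc17a6, and -5.31 with the longest transcript. With 1 library left out, the ratio of sums ran between -4.66 and -3.88 in female CAIA, -4.07 and -2.99 in female Ctrl, -4.10 and -3.21 in male CAIA, -5.13 and -5.02 in male Ctrl, -4.20 and -3.67 in all CAIA, and -4.57 and -3.96 in all Ctrl. The longest transcript gave Ctrl means of 140 CPM per kb for Slc17a6, 163 for Slc17a7, 10.7 for Gad1 and 190 for Slc6a11. With 2 or 3 libraries a group, the 95% interval over both sexes still allowed log2 changes of -0.91 to 1.81 for Gad1 and -1.17 to 2.46 for Slc32a1.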
